A study of Mus musculus with 6 samples.

Results

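The cytosolic ribosomal protein genes were examined in mouse pre-B leukaemia cells driven by BCR-ABL1. These cells carried floxed Spry1 and Spry2 genes and either an inducible recombinase or a control vector. Members were all genes with a probe of their own on the array whose symbol has the form Rpl or Rps followed by a number (with a final a or x allowed), together with Rpsa, Rplp0, Rplp1 and Rplp2. This gave 53 of the 19938 genes measured, 20 of the 40S and 33 of the 60S subunit. The brightest single-gene probe stood for each gene. All 53 matched the RefSeq gene table. A further 16 symbols of the same form occurred on the array only on probes that name several genes, and these probes are described apart.

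All 6 arrays came from Ph+ acute lymphoblastic leukaemia cells of the FvB/N strain that carried SPRY1/2 fl/fl alleles. The control cells (ERT, 3 arrays) had been transduced with PMIP-ERT2, which holds no recombinase, and the others (CRE, 3 arrays) with PMIP-CRE-ERT2, whose recombinase is active in the presence of 4-hydroxytamoxifen. Both groups had been selected with puromycin and had received 0.5 µM 4-hydroxytamoxifen for 2 days before total RNA was extracted. Separate cultures are not named in the labels for the arrays of a group, so p-values cover the variation among these 3 arrays alone, and it may be technical. Cells with the recombinase and intact Sprouty alleles were not analysed here, so loss of Spry1 and Spry2 and activity of the recombinase cannot be told apart.

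Values are log2 expression from the deposited table, and a difference is the CRE mean minus the ERT mean. Both floxed genes were lower in CRE cells, Spry2 by a log2 difference of -1.06 ± 0.09 (SE, limma adjusted p = 0.00162) and Spry1 by -0.84 ± 0.09 (SE, limma adjusted p = 0.00462). The mean signal of Spry2 was 8.42 in ERT and 7.36 in CRE cells, and that of Spry1 was 9.13 and 8.29. Recombination of the alleles was not measured here. Of 14 measured pre-B cell markers, 14 lay above the median probe signal on every array, and 1 was called lower in CRE cells (1.12% of all genes). The first control array stood apart from the rest: the median gene lay 0.07 above its own mean over the 6 arrays there, against values between -0.02 and -0.01 on the other 5. Markers of mast cells moved with the groups too: the mean log2 value of 19 of them was 8.78, 7.78 and 8.19 in CRE replicates 1, 2 and 3, against 7.65, 7.15 and 7.39 in the ERT replicates. Of these markers 18 had positive differences, as had 7357 of all 19938 genes. The test called 3 of them higher (0.797% of all genes), and 4 lay above the median probe signal on every array. The part of these markers in the values below was not tested.

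Cytosolic ribosomal proteins join ribosomal RNA in the nucleolus to form the small 40S subunit, which reads the messenger RNA, and the large 60S subunit, which forms the peptide bond. Their messenger RNAs are among the most abundant in growing cells and begin with a 5′ terminal oligopyrimidine (TOP) tract, a C followed by further C or U bases, through which the kinase mTORC1 and the RNA-binding protein LARP1 control their translation. RAS-ERK and mTOR signalling both feed into ribosome production, and lymphoid leukaemia cells depend on high protein synthesis. Because TOP control acts on translation, a change in it need not appear in messenger RNA levels.

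The start sites of 42 members were found in the RefSeq promoter table (GRCm38.p6), with 49 annotated starts between them. A tract, searched as a C within 2 bases of the annotated start followed by at least 4 further C or T bases on the sense strand, was present at 14 of the 49 starts (28.6%), against 8.96% of all 32851 starts in the table. The windows of 5 members with a tract are shown because these genes stand near either end of the range of differences described below. They run from 30 bases before the annotated start to 20 bases after it. Capitals mark the tract, counted from the matching C nearest the annotated start.
Rpl14, chr9:120571487-120571536, plus strand: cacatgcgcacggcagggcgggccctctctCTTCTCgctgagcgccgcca
Rps15a, chr7:118116128-118116177, minus strand: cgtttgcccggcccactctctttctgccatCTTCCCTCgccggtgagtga
Rpl27a, chr7:109519165-109519214, plus strand: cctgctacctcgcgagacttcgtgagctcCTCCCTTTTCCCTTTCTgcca
Rps6, chr4:86857348-86857397, minus strand: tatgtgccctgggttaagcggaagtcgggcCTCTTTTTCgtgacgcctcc
Rpl38, chr11:114668550-114668599, plus strand: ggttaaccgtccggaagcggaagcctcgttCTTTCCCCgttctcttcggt

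As marked, the tract of Rpl27a was 17 bases long and began 1 base before the annotated start. Those of Rpl14 (6 bases), Rps15a (8 bases), Rpl38 (8 bases) and Rps6 (9 bases) were marked from the annotated start itself. In each of these windows further C or T bases stand directly before the marked stretch, so the unbroken runs are longer than these lengths. Genes at both ends of the range of differences thus carried a tract. The 13 members in which a tract was found had a median difference of -0.03, between -0.24 and 0.14. For the 29 in which none was found the median was -0.02, between -0.14 and 0.10. The motif CCGGAAG, which ETS factors can bind, occurred on either strand in the 250 bases before 14 of the 49 starts (28.6%, against 6.91% of all starts), and GGGCGG before 23 of them (46.9%, against 32.7%). TATAAA on the sense strand of the last 50 bases before the start, and AAGATGGC on the sense strand of the first 50 bases after it, occurred at 0 of the 49 (2.63% and 0.865% of all starts). A match describes the letters of these windows, and annotated starts can lie some bases away from those used in these cells. Members without a match may therefore have a tract, and the medians above cannot show whether a tract goes with the difference.

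Messenger RNA signal of the cytosolic ribosomal protein genes, read on the brightest single-gene probe of each, differed little between the groups. For some members, among them Rpl12, Rpl30, Rpl34 and Rps15a, probes shared with other genes were brighter, and these are described below. None of the 53 genes passed the test (limma, Benjamini-Hochberg over all 19938 genes; lowest adjusted p = 0.13), where 1.92% of all genes did. At an unadjusted p under 0.05 there were 6 members, against 18.1% of all genes. The median difference was -0.03 for the members and -0.03 for all genes. For 50 of the 53 members the 95% interval of the difference lay within 0.32 of 0 on the log2 scale, as it did for 80.1% of all genes, and the exceptions were Rpl14, Rpl30 and Rpl34.

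**Figure D1:**
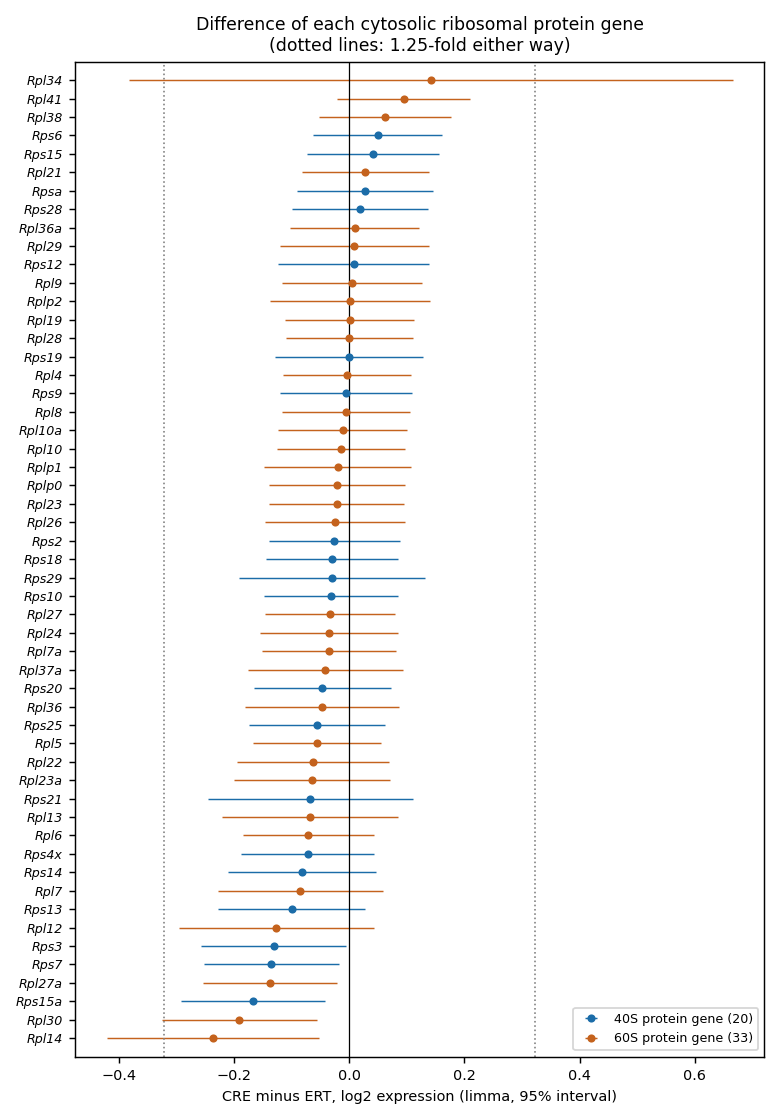
Log2 difference between CRE and ERT arrays (x axis, with 95% limma intervals, 3 arrays a group) for each of the 53 ribosomal protein genes (y axis, ordered by difference, coloured by subunit). Point estimates run from -0.24 (Rpl14) to 0.14 (Rpl34), the intervals of 50 genes stay between the dotted lines at a log2 difference of 0.32 either way, and that of Rpl34 is the widest.

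The members were close to each other in their differences. An absolute log2 difference under 0.1 was found for 45 of 53 members (84.9%) and for 64% of all genes, and the median absolute difference was 0.04 for members and 0.07 for all genes. The SD between arrays of a group was also smaller, with a median of 0.03 for members and 0.08 for all genes. Members were far brighter, however, with a median mean signal of 13.3 against 8.02 for all genes. No comparison with genes of like signal was made, here or for the intervals above. Differences were negative for 39 members, or 73.6%, against 63.1% of all genes. The 40S and 60S genes had similar medians (-0.03 and -0.02), with 15 of 20 and 24 of 33 negative. Groups did not overlap for 14 members, 10 lower and 4 higher in CRE cells, and this share of 26.4% is close to that of all genes (18.2% lower and 6.59% higher).

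The lower values depended in part on the first control array. It held the highest value of 33 of the 53 members, whereas the other arrays held the highest value of 2 to 5 each. Members lay at a median of 0.04 above their own mean there, against values between -0.01 and 0.01 on the remaining arrays. The median over all genes lay 0.07 above on that array, so the shift was not particular to the members. How many of all genes were highest there is not given here. Without the first control array, 32 members had negative differences and the median difference was -0.01.

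**Figure D2:**
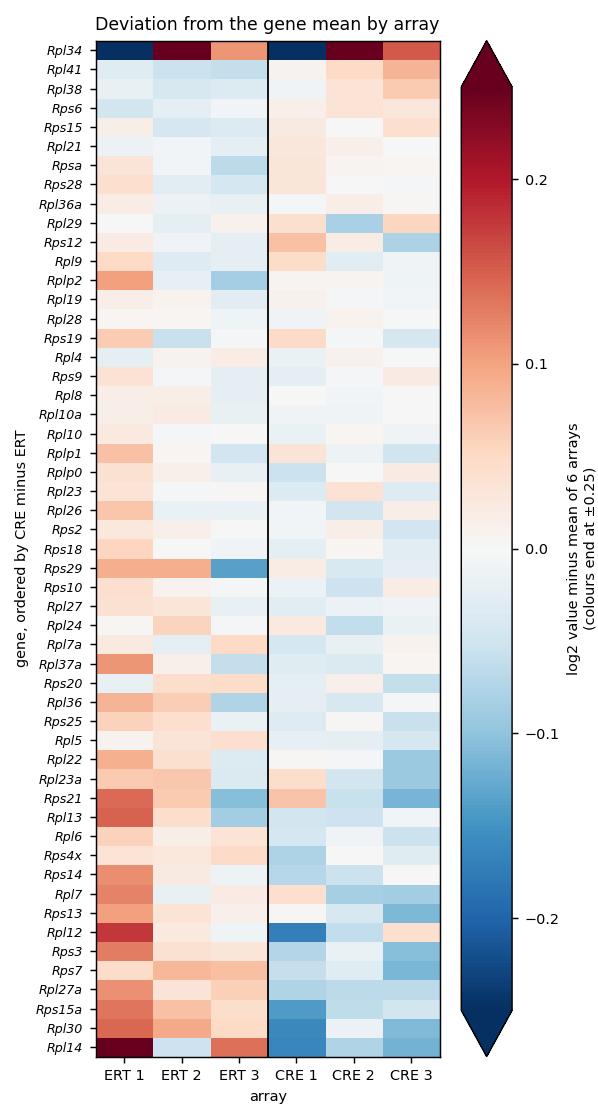
Log2 value minus the gene's mean over the 6 arrays (colour) for the 53 ribosomal protein genes (rows, ordered by the CRE minus ERT difference) on each array (columns). The first ERT column holds the highest value of 33 genes, and Rpl34 in the top row is low on both arrays numbered 1.

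The lowest differences belonged to genes of both subunits. Rpl14, a 60S protein gene, read 11.05, 10.73 and 10.92 in ERT replicates 1, 2 and 3 and 10.62, 10.71 and 10.66 in the CRE replicates. All CRE values lay below all ERT values, but the lowest ERT array and the highest CRE array were nearly level. The difference was -0.24 ± 0.08 (SE, limma adjusted p = 0.163), and -0.14 with the arrays weighted by their spread.

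Rpl30, whose protein represses splicing of its own transcript in yeast, read 11.33, 11.28 and 11.24 in ERT and 11.03, 11.17 and 11.08 in CRE arrays. The groups did not overlap, and the difference was -0.19 ± 0.06 (SE, limma adjusted p = 0.13). The gene passed when the arrays were weighted by their spread (-0.18, limma adjusted p = 0.0490), a fit in which 9.25% of all genes passed.

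Rps15a, a 40S protein gene mutated in some families with Diamond-Blackfan anaemia, read 10.92, 10.86 and 10.83 in ERT and 10.64, 10.72 and 10.74 in CRE arrays, again without overlap. Its difference was -0.17 ± 0.06 (SE, limma adjusted p = 0.15). Rpl27a, with the long tract printed above, read 13.19, 13.11 and 13.14 in ERT arrays and 13.01, 13.02 and 13.02 in CRE arrays. This was a difference of -0.14 ± 0.05 (SE, limma adjusted p = 0.195), and the 3 CRE arrays were nearly identical.

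Rps7, whose free protein binds the p53 inhibitor MDM2, read 13.59, 13.63 and 13.62 in ERT and 13.49, 13.51 and 13.43 in CRE arrays (difference -0.14 ± 0.05 SE, limma adjusted p = 0.209). Rps3, which lines the entry of the mRNA channel, read 13.24, 13.15 and 13.14 against 13.04, 13.10 and 13.004 (difference -0.13 ± 0.06 SE, limma adjusted p = 0.257). The groups did not overlap for either gene. With the prior variance of limma allowed to follow signal, Rps7 and Rpl27a were lower (limma adjusted p = 0.0214 and 0.0263) and Rpl41 was higher (limma adjusted p = 0.0468), in a fit that called 5.95% of all genes.

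At the other end of the range the differences were smaller, apart from that of Rpl34. Rpl41, which encodes the smallest ribosomal protein, read 13.90, 13.88 and 13.87 in ERT and 13.94, 13.98 and 14.02 in CRE arrays, without overlap (difference 0.10 ± 0.05 SE, limma adjusted p = 0.376). Rpl38, needed in mouse embryos for translation of a subset of Hox mRNAs, read 13.41, 13.39 and 13.39 against 13.42, 13.46 and 13.49 (0.06 ± 0.05 SE, limma adjusted p = 0.584). Rps6, the substrate of the S6 kinases downstream of mTORC1 and ERK, read 14.18, 14.21 and 14.22 against 14.24, 14.26 and 14.26 (0.05 ± 0.05 SE, limma adjusted p = 0.663). All 3 genes had CRE values above every ERT value by narrow margins. Rps15, a 40S protein gene recurrently mutated in chronic lymphocytic leukaemia, differed by 0.04 with overlapping groups, and Rpl21 by 0.03 without overlap.

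Rpl34 was the most variable member. Its probe read 10.49, 11.40 and 11.22 in ERT and 10.83, 11.45 and 11.26 in CRE arrays, so that the 2 arrays numbered 1 were low in both groups and the groups overlapped. The difference of 0.14 had a 95% interval from -0.38 to 0.67 (limma adjusted p = 0.804), and it was -0.13 without the first ERT array. The 4 probes that name Rpl34 together with Gm4705 and Rpl34-ps1 showed no such drop. On these the first ERT array lay between the other ERT arrays, and the differences ran from 0.0009 to 0.04.

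**Figure D3:**
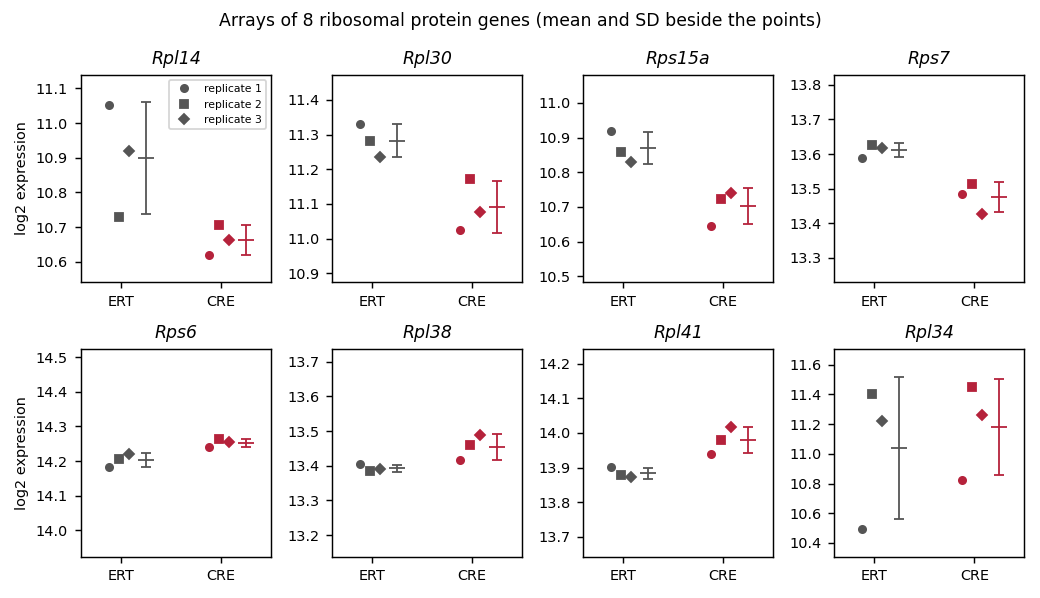
Log2 expression (y axis) of 8 ribosomal protein genes on each array, with the mean and SD of 3 arrays beside the points. All panels have the same span of the y axis except that of Rpl34, which is wider. CRE points lie below all ERT points for Rpl14, Rpl30, Rps15a and Rps7 and above them for Rps6, Rpl38 and Rpl41, while for Rpl34 replicate 1 is low in both groups.

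Members with defined roles in the ribosome also had small differences, and 0 of them passed. Rpl5, which with Rpl11 and 5S RNA forms the particle that can hold MDM2, differed by -0.06 ± 0.05 (SE), and the 6 probes that name Rpl11 and Brf2 together differed by -0.01 to 0.01. In the stalk that recruits elongation factors, Rplp0 differed by -0.02 and Rplp1 by -0.02, and Rplp2 by 0.001, a value whose sign turned under other scaling. Rpl12 at the stalk base differed by -0.13 ± 0.07 (SE, limma adjusted p = 0.427), with overlapping groups. This value was -0.07 without ERT replicate 1, -0.07 without CRE replicate 1 and -0.05 with array weights. Rpsa, also known as the laminin receptor precursor, differed by 0.03 on its brightest probe and by -0.11 to -0.06 on its other 4. Of 19 genes mutated in Diamond-Blackfan anaemia, an inherited failure of red cell production, 9 were members with a median of -0.03, 8 of them negative, and 0 passed. Apart from Rps15a and Rps7, these lay between -0.06 (Rpl5) and 0.02 (Rps28). Among 3 members at the mRNA entry and decoding site the median was -0.03, and Rps3 had the lowest p. Among 4 members at the exit of the peptide tunnel, Rpl22 had the lowest p (difference -0.06, limma adjusted p = 0.631).

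Array probes for these genes are often shared. The genome holds many processed copies of ribosomal protein genes, and 38 of the 53 members had several single-gene probes, 208 in all. Of these probes 19, in 5 genes, held the same values on all 6 arrays as another probe of their gene, among them all 3 of Rpl41. With such repeats counted once, 37 genes had several probes, whose differences spanned a median of 0.02 within a gene. The span was under 0.1 in 36 genes and widest in Rpsa (0.14), and all probes had the same sign in 29. When every probe was tested singly, 0 of the 208 passed (limma, adjusted over 35556 probes, of which 0.0591% passed).

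Probes that name a member together with other genes numbered 233, and 228 of these name no small nucleolar RNA. On the 228 the median difference was 0.01, the range -0.12 to 0.17, and 223 were under 0.1 in size. They add the 16 symbols without a probe of their own. Rpl3 was at -0.10 to -0.06 on 7 probes, Rpl35a at -0.06 to -0.03 on 12, Rpl17 at -0.03 to 0.02 on 17, and Rpl39 at 0.06 and 0.07 on 2. Rps27, named together with Rps27rt on 2 probes, had the highest values (0.16 and 0.17), where the third ERT array was the lowest (11.54 and 11.38) and the groups overlapped. Of the 233 probes, 0 passed (limma adjusted p from 0.211) and 4 had an unadjusted p under 0.05.

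The largest differences lay mostly on dimmer probes, with exceptions. Rplp2, the dimmest member (mean signal 8.52), differed by 0.001. Rpl27a, Rps7 and Rps3, each above 13, differed by -0.14, -0.14 and -0.13. The 8 members with a mean signal under 12 had a median absolute difference of 0.13, the 8 between 12 and 13 had 0.03, and the 37 at 13 or more had 0.03. Spearman's rho between mean signal and absolute difference was -0.36 over the 53 members, which share the same 6 arrays, and 0.17 over all genes. Signals of different probes do not compare RNA amounts between genes, and bright probes can respond less than in proportion to RNA, which was not tested here.

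Of the 11 members whose probes, shared ones included, lay at least 1 log2 unit of signal apart, the dimmest probe had the larger absolute difference in 9 and the brightest in 2. The exceptions were Rps21 (0.004 at a signal of 9.43 and -0.07 at 11.4) and Rps2 (-0.005 at 12.8 and -0.04 at 14.1). Among the 9, the dimmest and brightest probes of Rpl7a (-0.04 and -0.02), Rpl23 (-0.04 and -0.02) and Rpl27 (-0.06 and -0.03) lay close together. The SEs of these dimmest probes were 0.08, 0.04 and 0.05. Rpl34, also among the 9, was low on the arrays numbered 1 on its dimmest probe. The 4 genes that follow were picked with their values known. Rpl12 was at -0.13 on its own probe (mean signal 10.7; -0.07 without ERT replicate 1 or without CRE replicate 1), but at 0.02 to 0.06 on 7 probes shared with Gm32899 (13.7 to 14.2). For Rpl30 the own probe (11.2) gave -0.19 and 10 shared probes (13.2 to 13.6) gave -0.10 to -0.06. For Rps15a the own probe (10.8) gave -0.17 and 2 shared probes (12.2) gave -0.08 and -0.05. For Rpl24, the 3 single-gene probes with signals of 12.1, 11.3 and 10.8 gave -0.03, -0.06 and -0.09.

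**Figure D4:**
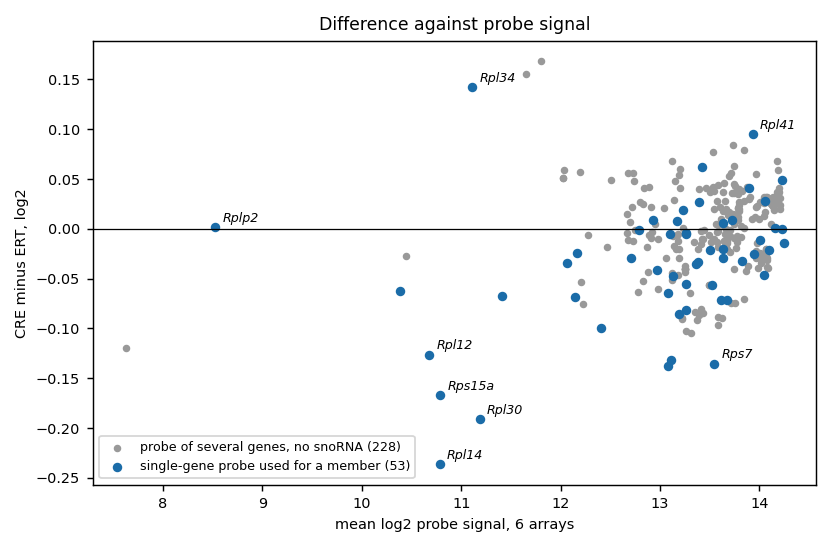
Log2 difference between CRE and ERT arrays (y axis) against mean log2 probe signal over 6 arrays (x axis). Blue points are the single-gene probes of the 53 members and grey points the 228 probes of several genes. Above a signal of 12 most points lie within 0.1 of 0, while Rpl14, Rpl30, Rps15a and Rpl12 lie lower, at signals of 10.7 to 11.2.

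Ribosomal protein genes also carry small nucleolar RNAs (snoRNAs) in their introns, which guide methylation and pseudouridylation of ribosomal RNA. In the RefSeq table, 52 snoRNA genes lay within the span of 26 of the ribosomal protein genes that a probe names, and 24 probes named 1 of these snoRNAs, from 16 host genes. This set was drawn up after the values of some of the probes had been seen, and it was given no test as a set. Differences were negative for 22 of the 24 probes, with a median of -0.21 and a range of -0.42 to 0.18. These probes are not separate observations: several lie in Rpl13a, and Snord58b, Snora21 and Snora3 each have more than 1 probe. Their mean signals ran from 6.80 to 13.9. Over all 35556 probes 58.2% were negative and the median was -0.02, and 70 probes of other snoRNAs had 39 negative values and a median of -0.01.

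The lowest values came from a host without a probe of its own. The probe of Snord34 and Rpl13a was at -0.42 ± 0.17 (SE) and that of Snord33, in the same host, at -0.39 ± 0.15 (SE). Most snoRNA probes whose host has its own probe lay lower than that host, and examples are named with knowledge of their values. Snord42a in Rpl23a was at -0.39 ± 0.09 (SE), while Rpl23a itself was at -0.06. Snord16a in Rpl4 was at -0.19 and Snora70 in Rpl10 at -0.22, and these hosts were at -0.004 and -0.01. The probes of Snord68 and Rpl13 (-0.32) and of Snord14a and Rps13 (-0.29) were lower than those hosts (-0.07 and -0.10). The reverse was seen for both Snora3 probes (-0.004 and -0.005), whose host Rpl27a was at -0.14. Snora33 in Rps12 (0.18) and Snora62 in Rpsa (0.06) were the highest of the 24.

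None of the 24 snoRNA probes passed (limma over all probes, lowest adjusted p = 0.15), and the groups did not overlap for 11, all lower in CRE cells (15% of all probes). The first ERT array held the highest value of 15 probes and the first CRE array, which had the highest mast cell marker mean, the lowest value of 17. Without the first ERT array the median was -0.17, with 20 negative, and without the first CRE array it was -0.15, with 20 negative. Whether such a probe reads the snoRNA or the unspliced host transcript was not tested.

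**Figure D5:**
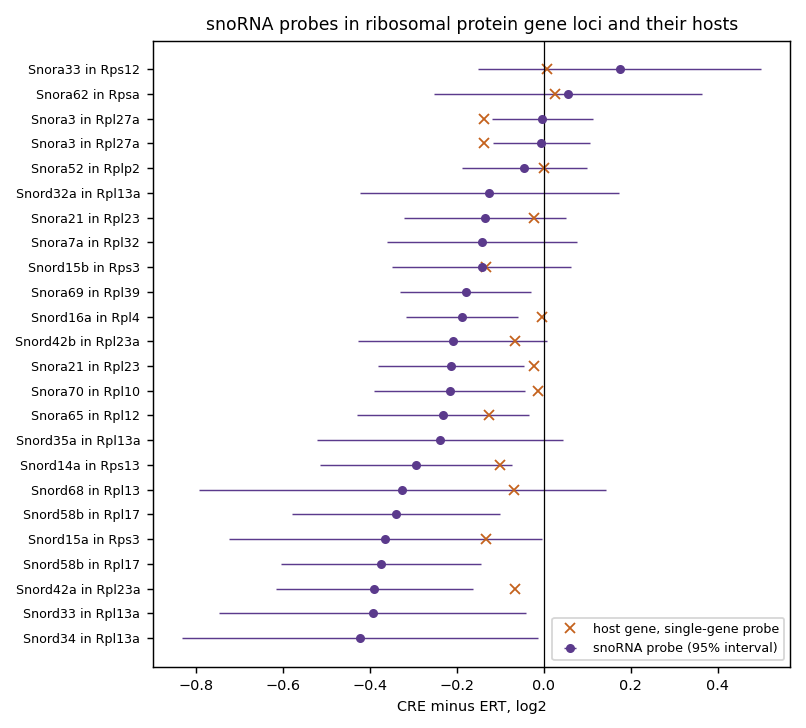
Log2 difference between CRE and ERT arrays (x axis) for 24 probes that name a snoRNA inside a ribosomal protein gene (y axis, purple points with 95% limma intervals), with crosses for hosts that have a single-gene probe. Of the snoRNA probes 22 lie below 0, and the median of all 24 is -0.21, and most crosses lie to the right of their snoRNA probe, except for those of Rps12, Rpsa and Rpl27a.

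Genes around the ribosomal proteins were described from lists. Among 14 dedicated chaperones and late assembly factors of ribosomal proteins, 2 fell and 0 rose (1.12% and 0.797% of all genes), 13 differences were negative and the median was -0.17. Tsr2, which escorts Rps26 to the nascent 40S subunit, read 10.22, 10.10 and 10.17 in ERT and 9.75, 9.91 and 9.86 in CRE arrays, without overlap (-0.33 ± 0.06 SE, limma adjusted p = 0.0411). Nip7, a factor for 60S assembly, read 10.30, 10.24 and 10.33 against 9.98, 10.01 and 9.94 (-0.31 ± 0.05 SE, limma adjusted p = 0.0331). Both calls were lost without any 1 of the 6 arrays, where limma adjusted p ran from 0.0614 to 0.174 for Tsr2 and from 0.0552 to 0.173 for Nip7, with the direction kept.

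Of 19 other genes with TOP messenger RNAs, among them translation factors, 0 passed (1.92% of all genes did), and the median was -0.07. Eef1a1 was at 0.01 and Eef2 at 0.01, and Eef1d, a subunit of the exchange factor for eEF1A, had the lowest p (-0.22 ± 0.07 SE, limma adjusted p = 0.14). Fau, which encodes a ubiquitin-like protein fused to a 40S protein, was at -0.03 and Rps3a1 at -0.10. Among 6 paralogs of ribosomal proteins 0 passed, beside the same 1.92% of all genes, and Rpl39l had the lowest p (-0.19, limma adjusted p = 0.124). Of 22 regulators of mTORC1 and TOP messenger RNAs, 1 rose (0.797% of all genes did), and the median was -0.02. The gene that rose was the mTORC1 inhibitor gene Ddit4 (0.39 ± 0.05 SE, limma adjusted p = 0.0157). The call of Ddit4 was lost without ERT replicate 2 or 3 or CRE replicate 1 or 3 (limma adjusted p = 0.0677, 0.0855, 0.0526 and 0.103).

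Mitochondrial ribosomal proteins are encoded in the nucleus and form the separate ribosome of mitochondria. Their genes were taken by symbol alone (Mrpl or Mrps and a number, with a final letter allowed), and the place of each protein in this ribosome was not checked. Of the 77 genes so named 8 fell and 0 rose (1.12% and 0.797% of all genes). Differences were negative for 71 (63.1% of all genes) and the median was -0.14, beside 0 passing, 39 of 53 and -0.03 for the cytosolic genes. Mrpl47 (-0.47 ± 0.07 SE, limma adjusted p = 0.0191), Mrpl18 (-0.35) and Mrps22 (-0.38) were among the 8, and with the mean of its probes Mrpl47 no longer passed (-0.23, limma adjusted p = 0.0755). Without 1 array the count was 3 (ERT replicate 1), 1 (ERT replicate 2), 0 (ERT replicate 3), 1 (CRE replicate 1), 3 (CRE replicate 2) or 0 (CRE replicate 3). The mitochondrial probes had mean signals from 8.61 to 12.5, below those of 37 cytosolic members (over 13), and no test of the difference between both sets was made.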

How the data were processed

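Expression was measured on 6 arrays, and the deposited log2 values of the 35556 probes span 2.47 to 14.8. The submitters' processing notes list RMA and Partek 6.5. Other settings and a genome build: not given in the sources used here. Probes were named through the platform annotation: 21789 name 1 gene, 1621 several and 12146 none. The brightest single-gene probe stood for a gene. The CRE and ERT arrays were compared by limma 3.58.1 (lmFit, then eBayes; R 4.3.3). P-values of all genes were adjusted together by the Benjamini-Hochberg method, and an adjusted p under 0.05 counted as passing. The number of arrays limits precision. The procedure was tested on simulated data.

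Named members were the 6 with the largest differences in each direction, the 5S particle and stalk genes, Rps6 and Rpsa. In other lists they were those past the threshold or with the lowest p, and others were chosen after their values were seen. Members and lists were chosen with earlier results of these data known. RefSeq tables (GRCm38.p6) gave names, containment of snoRNA genes and sequences. Same-numbered arrays were not treated as pairs.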

Additional observations from a re-analysis of the deposited data

How the results depend on the processing

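The number of arrays limits precision. Members passing numbered 0 in each direction, and stayed at 0 under the other alternatives including each array left out, except with an intensity trend (1 higher, 2 lower) and array weights (0 higher, 1 lower). At an adjusted p under 0.1, 0 members passed. Without 1 array the member median ran from -0.04 to -0.01, that of 40S genes from -0.04 to -0.02 and that of 60S genes from -0.04 to -0.01. On several-gene probes the member median was 0.0045. Over all genes, 159 rose and 223 fell, against 364 and 791 with dim genes left out, 314 and 692 with arrays centred on their medians, 366 and 821 with an intensity trend, 763 and 1082 with array weights, and 401 and 833 at the 0.1 threshold. A repeated quantile normalization gave 369 higher and 334 lower, so that more genes rose than fell. The replicate block gave 296 higher and 285 lower, with 0 members. Correlations of same-numbered deviations were 0.27, 0.34 and 0.03, and those between differently numbered arrays ran from -0.33 to 0.04. The first 2 were thus above every value between differently numbered arrays. The main fit did not take the numbers as pairs, and these values do not settle whether they are. Without 1 array, 31 to 188 genes rose and 18 to 111 fell (188 and 63 without ERT replicate 1, 38 and 32 without ERT replicate 2, 32 and 23 without ERT replicate 3, 62 and 39 without CRE replicate 1, 96 and 111 without CRE replicate 2, 31 and 18 without CRE replicate 3). Of 252 values of 18 named members under an alternative, 237 kept their sign and side of the threshold, 4 passed under the alternative and 11 turned sign, each of them uncalled. Rpl34 was at -0.038 with array weights and between -0.13 and 0.32 without 1 array, Rplp0 between -0.036 and 0.0001, Rplp1 between -0.049 and 0.012, and Rplp2 between -0.040 and 0.053. Rplp2 was at -0.0062 with centred arrays and -0.0036 after repeated quantile normalization, and Rpsa at -0.056 with the mean of its probes. Chosen after seeing the data, the same alternatives were run for the called genes of other lists: mitochondrial genes called lower numbered 8, and 24 with dim genes left out, 22 with centred arrays, 14 after repeated quantile normalization, 23 with an intensity trend and 25 with array weights. The cause of these changes was not tested.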
